A study of Mus musculus with 18 samples.

Results

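The effect of PaPE-1 that diet-induced and leptin-deficient obesity have in common was read from liver RNA of both models. A gene was taken when its 3 PaPE-1 libraries all lay above, or all lay below, its 3 vehicle libraries in DIO liver and again, in the same direction, in ob/ob liver. Of 13926 genes tested, 102 met this rule: 41 were higher with PaPE-1 in both models (0.294%) and 61 were lower in both (0.438%). Of the 61 lower genes 14 differed by more than 2-fold, and the higher genes all differed by less than 2-fold. Among all 13926 genes 143 differed by more than 2-fold in either direction. Of the 14 genes, 7 are on a list of cell division genes, which holds 51 of the genes tested. That list was chosen with earlier results of these data known. In an additive fit of PaPE-1 against vehicle with the model as a block, 0 genes passed an adjusted p of 0.05 in edgeR's quasi-likelihood test over the 12 libraries (0%), 2107 had an unadjusted p under 0.05, DESeq2's Wald test called 4 higher and 10 lower and limma voom 0.

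PaPE-1, a pathway preferential estrogen, is a ligand made to bind the estrogen receptor weakly and to favour its signalling outside the nucleus over its action on estrogen response elements. Estrogen receptor alpha is the main estrogen receptor of the liver, where loss of ovarian estrogen is known to favour fat storage. Hepatocytes of adult liver rarely divide, so transcripts of mitosis come from a small share of cells, which may be hepatocytes, endothelial cells or immune cells.

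All mice were ovariectomized C57BL/6 females that had received their ligand from a minipump for 6 weeks. The DIO mice were wild type and were made obese by a diet that took 45% of its calories from fat and held 0.2% cholesterol. The ob/ob mice carry a mutation of the leptin gene, make no leptin, and were on a normal diet. PaPE-1 was given at 300 µg per kg per day, E2 (estradiol) at 5 µg per kg per day, and vehicle was a mixture of DMSO, ethanol and saline. There were 3 libraries in each of the 4 groups compared, described in the sample records as biological replicates, although the same records state that fewer were sequenced. Total counts lay between 16651616 and 21703791 in the 6 DIO libraries and between 10470665 and 17021370 in the 6 ob/ob libraries. The models differ in diet and genotype and were deposited as separate tables. The model and the preparation of its libraries thus cannot be told apart, and PaPE-1 was compared with vehicle only within a model. The 15 hepatocyte markers summed to between 88186 and 144426 CPM, far above any list of markers of another cell type. Levels are in CPM, the read count relative to the TMM-scaled size of the library, and are listed for replicates 1, 2 and 3 in that order. In bulk liver, fewer cells of a type and less RNA per cell cannot be told apart.

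The size of the common set has to be read against each model alone. In DIO liver 2431 genes lay wholly above vehicle (17.5%) and 2071 wholly below it (14.9%), whereas in ob/ob liver 417 lay above (2.99%) and 413 below (2.97%). Of the genes below vehicle in DIO liver, 2.95% were also below it in ob/ob liver, a share close to the 2.97% of all genes. Of the genes above vehicle in DIO liver, 1.69% were also above it in ob/ob liver, under the 2.99% of all genes. Seen from ob/ob liver, 14.8% of its lower genes and 9.83% of its higher genes were shared with DIO liver, against 14.9% and 17.5% of all genes. A further 85 genes (0.61%) lay beyond vehicle in opposite ways in the models. The number of shared genes was thus no larger than the shares of all genes, and nothing is read from the number itself.

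**Figure D1:**
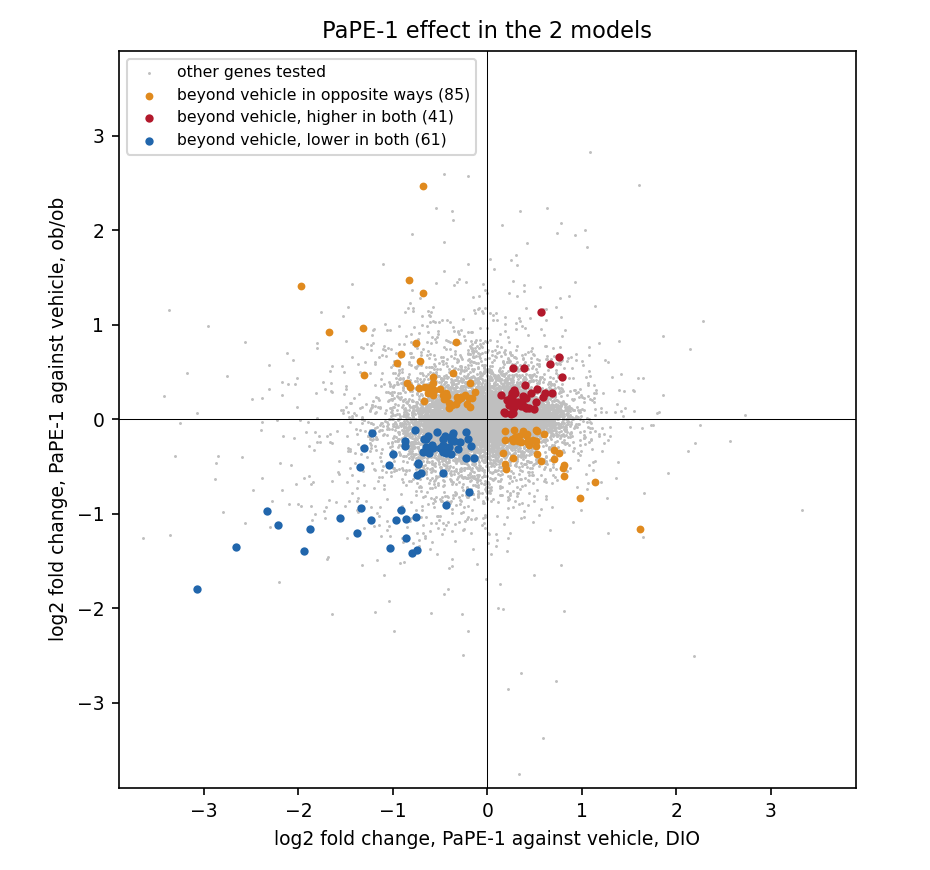
Each point is 1 of 13926 genes, with its log2 fold change of PaPE-1 against vehicle in DIO liver (horizontal) and in ob/ob liver (vertical), both from the fit over 12 libraries. Blue points (61) lie to the lower left and reach -3.07 in DIO and -1.80 in ob/ob liver, red points (41) reach no more than 1.13 in either, and 85 orange points lie beyond vehicle in opposite ways.

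The 14 lower genes with an additive log2 fold change under -1 were Troap, Pbk, Ckap2l, Itgb8, Cenpf, Gsta1, Cdc20, Iqgap3, Ccna2, Kif20a, Aspm, Cip2a, Top2a and Tpx2. Except for Itgb8, an integrin subunit, and Gsta1, a glutathione transferase, their products are known from proliferating cells: Top2a untangles chromosomes, Cenpf sits at kinetochores, Cdc20 activates the anaphase-promoting complex, Ccna2 is cyclin A2, Kif20a is a motor of cytokinesis, and Aspm, Tpx2, Ckap2l and Troap act at the spindle. Many promoters of such genes carry a CCAAT box, bound by NF-Y, and a cell cycle homology region (CHR), bound by the DREAM and MuvB complexes. The promoters of 3 of these genes are shown because both motifs lie in the 250 bases printed, and Aspm and Cenpf hold both only when the 50 bases after the start are added. Each is the 250 bases before the RefSeq start in GRCm38.p6, read 5′ to 3′ on the strand of the gene, with CCAAT and TTTGAA of either strand in capitals.
Top2a (chr11:99024190-99024439, strand -): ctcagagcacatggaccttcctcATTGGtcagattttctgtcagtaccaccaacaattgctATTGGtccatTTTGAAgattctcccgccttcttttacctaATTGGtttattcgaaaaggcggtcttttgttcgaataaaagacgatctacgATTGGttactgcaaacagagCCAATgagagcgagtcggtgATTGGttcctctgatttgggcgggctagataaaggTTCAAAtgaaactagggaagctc
Cdc20 (chr4:118437344-118437593, strand -): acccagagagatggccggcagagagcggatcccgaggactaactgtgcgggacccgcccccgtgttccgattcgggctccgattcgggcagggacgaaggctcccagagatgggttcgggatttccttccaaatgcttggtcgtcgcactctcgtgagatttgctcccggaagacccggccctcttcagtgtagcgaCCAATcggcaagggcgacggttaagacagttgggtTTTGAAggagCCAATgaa
Ckap2l (chr2:129297213-129297462, strand -): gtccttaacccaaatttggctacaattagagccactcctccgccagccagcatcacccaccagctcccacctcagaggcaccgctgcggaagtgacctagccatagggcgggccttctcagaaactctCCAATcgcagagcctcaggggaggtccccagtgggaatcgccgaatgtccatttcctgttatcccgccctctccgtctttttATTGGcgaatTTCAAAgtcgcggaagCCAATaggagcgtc

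The Top2a window held 6 CCAAT and 2 TTTGAA, that of Cdc20 held 2 and 1, and that of Ckap2l held 3 and 1. In the full windows of 300 bases, which add 50 bases after the start, CCAAT on either strand was found in 8 of the 10 lower genes with a log2 fold change under -1 and a promoter in the RefSeq table, or 80%, against 42.7% of the 11018 tested genes with one. TTTGAA was found in 6 of these 10 (60%) against 15.1% of all. Over all 47 lower genes with a promoter the shares were 44.7% for CCAAT and 31.9% for TTTGAA. In the 37 of them with a log2 fold change of -1 or above they were 35.1% and 24.3%. Of the 51 tested genes of a cell division list, 43 had a promoter, and 72.1% and 58.1% held CCAAT and TTTGAA. Of the 41 higher genes, 31 had a promoter, and 45.2% and 6.45% held these motifs. The full estrogen response element, in which GGTCA faces its inverted copy across 3 bases, was in 0 of 31 higher and 0 of 47 lower genes with a promoter and in 1 of all 11018. GGTCA alone, one arm of that element, was in 38.7% of the higher and 44.7% of the lower genes, against 43.2% of all. TTCNNNGAA, the site of STAT5, was in 9.68% and 19.1%, against 8.41% of all, and the E-box CACGTG in 12.9% and 8.51%, against 11.5%. These are counts of letters in short windows, with no test.

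Top2a (chromosome 11, 98883773 to 98915037, strand - in GRCm39) did not overlap between the groups in either model. In DIO liver it stood at 2.44, 2.2 and 2.14 CPM with vehicle and at 1.27, 0.899 and 0.475 CPM with PaPE-1. The ob/ob levels were 7.92, 11.1 and 5.6 CPM with vehicle and 3.93, 3.59 and 5.17 CPM with PaPE-1. No PaPE-1 library reached the lowest vehicle library of its model, and the second ob/ob vehicle library was the highest in ob/ob liver. The additive log2 fold change was -1.10 (SE 0.21), with -1.34 in the DIO and -0.94 in the ob/ob model.

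Cdc20 (chromosome 4, 118290098 to 118294540, strand -) stood at 0.862, 0.748 and 1.26 CPM in DIO vehicle and 0.422, 0.600 and 0.339 CPM in DIO PaPE-1 libraries. Its ob/ob levels were 6.41, 16.6 and 9.18 CPM and 3.52, 2.91 and 5.87 CPM. The lowest ob/ob vehicle level, 6.41 CPM, and the highest PaPE-1 level, 5.87 CPM, were close, and the log2 fold change was -1.26 (SE 0.27). For Ccna2 the DIO levels were 1.2, 1.01 and 1.6 CPM with vehicle and 0.663, 0.45 and 0.136 CPM with PaPE-1. Among ob/ob libraries Ccna2 was at 5.5, 13.2 and 6.08 CPM and at 4.54, 2.75 and 4.53 CPM, so that here too the second vehicle library stood highest. Its log2 fold change was -1.21 (SE 0.28).

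Ckap2l (chromosome 2, 129110130 to 129139148, strand -) had 0.383, 0.792 and 0.68 CPM in DIO vehicle and 0.181, 0.15 and 0.136 CPM in DIO PaPE-1 liver. These levels rest on 8, 18 and 14 reads against 3, 3 and 2 reads. In ob/ob liver it was at 3.21, 6.51 and 3.57 CPM with vehicle and 1.02, 1.3 and 2.62 CPM with PaPE-1, and the log2 fold change was -1.54 (SE 0.31). Pbk, a mitotic kinase, rested on still fewer reads in DIO liver, 12, 4 and 10 with vehicle and 1, 1 and 1 with PaPE-1. The ob/ob levels of Pbk were 2.68, 5.45 and 2.5 CPM and 1.29, 1.3 and 1.51 CPM, and it had the widest gap between the groups of any common gene, 0.66 on the log2 scale in the model where the gap was smaller. Troap had 1, 0 and 0 reads in the DIO PaPE-1 libraries against 3, 5 and 6 with vehicle, and its fitted log2 fold change of -2.05 (SE 0.46) depends on the prior count used for such low counts.

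The remaining mitotic genes with a log2 fold change under -1 followed the same order of groups, with Cenpf at -1.41, Iqgap3 at -1.26, Kif20a at -1.17, Aspm at -1.12, Cip2a at -1.10 and Tpx2 at -1.03. Cip2a, an inhibitor of the phosphatase PP2A, was at 1.25, 1.41 and 1.6 CPM against 0.663, 0.849 and 0.814 CPM in DIO liver. Its ob/ob levels were 4.97, 6.68 and 3.93 CPM against 1.62, 1.61 and 3.14 CPM. Kif20a was at 0.958, 0.879 and 1.41 CPM against 0.603, 0.749 and 0.543 CPM in DIO liver, with -0.75 as its log2 fold change there. Its ob/ob levels were 5.04, 12.8 and 9.12 CPM against 3.52, 1.99 and 4.65 CPM, with -1.38 as the log2 fold change. Other lower genes, picked after their values were seen, were Cep170 (-0.68), Cep192 (-0.57), the condensin subunit Ncapd2 (-0.52), the cohesin acetyltransferase Esco1 (-0.34) and Smc5 (-0.32). Ncapd2 was at 4.69, 5.28 and 5.63 CPM against 3.86, 4.15 and 3.19 CPM in DIO liver and at 7.13, 10.3 and 6.91 CPM against 5.48, 3.82 and 6.86 CPM in ob/ob liver, where the groups almost met.

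**Figure D2:**
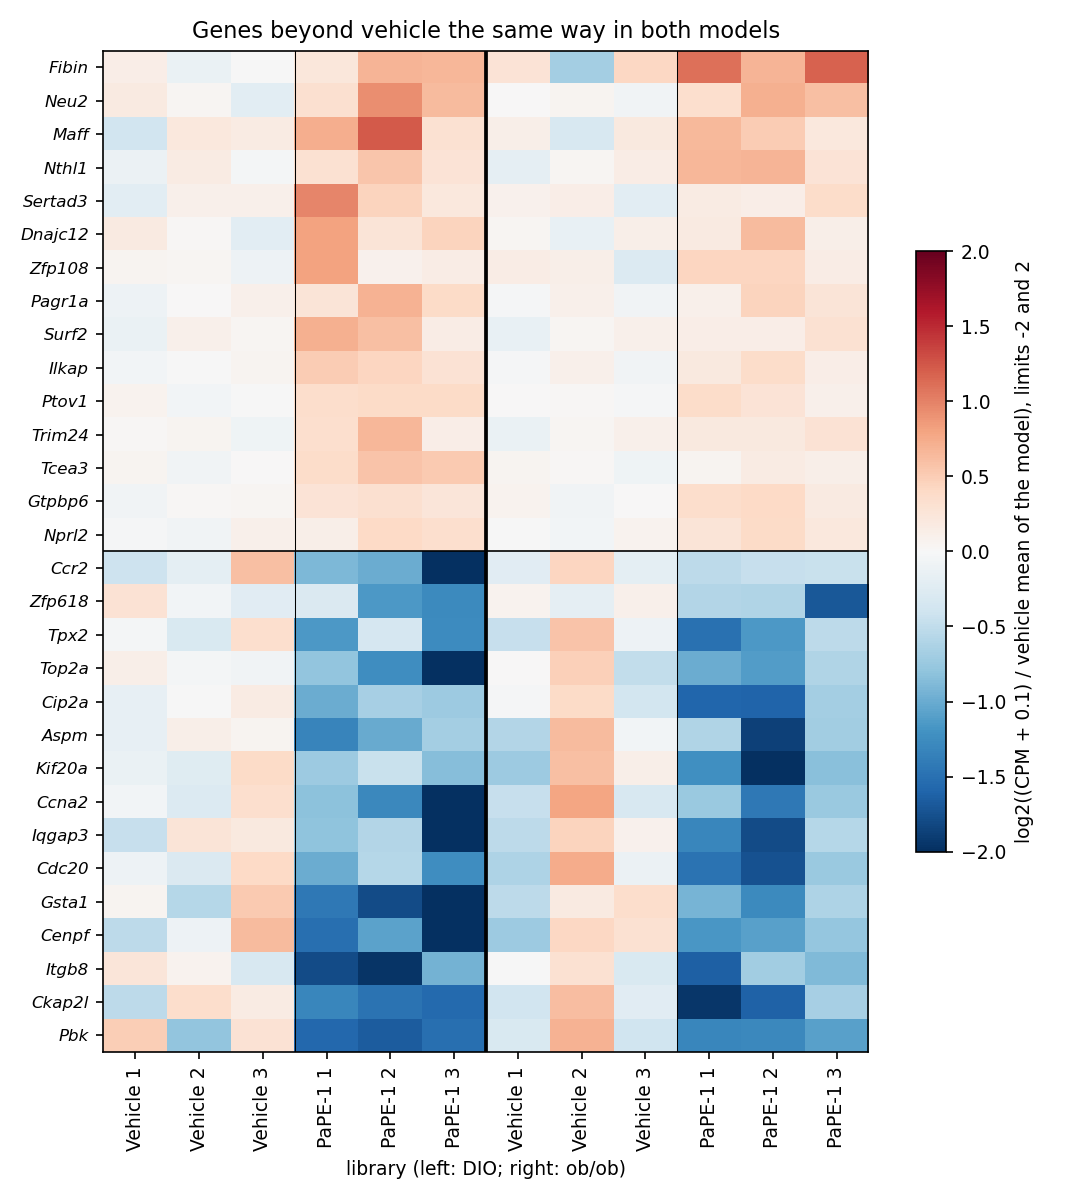
Each row is a common gene, 15 higher above the line and 15 lower below it, and each column 1 library (3 per group); the colour is the log2 ratio of the level plus 0.1 CPM to the vehicle mean of the same model, with limits at -2 and 2. The lower genes are blue in all 6 PaPE-1 columns, most of them are red in the second ob/ob vehicle library, and the higher genes are paler, with Maff and Fibin the strongest.

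The cell division list holds genes that the rule took and genes that it did not, and was chosen with earlier results of these data known. The counts below include the genes taken by the rule. All genes of the list were read in the same 12 libraries, so they are not separate observations. Of its 51 tested genes, 7 were common lower genes (Pbk, Cenpf, Cdc20, Ccna2, Kif20a, Top2a and Tpx2) and 0 were common higher genes, against 0.438% and 0.294% of all genes. In DIO liver 20 of the 51 lay wholly below vehicle, against 14.9% of all genes, and in ob/ob liver 16 did, against 2.97%. The additive log2 fold change was below 0 for 49 of the 51, and for 7072 of all 13926 genes. It was below 0 in both models for 45 of the 51, and for 3885 of all genes. The median was -0.79 over both models, -0.81 in DIO and -0.80 in ob/ob liver, and the median of all genes over both models was -0.01. At an unadjusted p under 0.05 in edgeR's quasi-likelihood test 34 were lower and 0 higher, against 6.66% and 8.47% of all genes. The 2 genes above 0 were Tk1 (0.42) and Tyms (0.02), both of nucleotide supply, and both lay above vehicle in DIO liver only. Pcna, the sliding clamp of DNA replication, was at -0.14 (SE 0.12), and Rrm1, a subunit of ribonucleotide reductase, at -0.22 (SE 0.13).

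Mki67, the proliferation marker, had the smallest p of the additive fit. It was at 3.59, 3.08 and 3.88 CPM with vehicle and 1.57, 1.4 and 1.36 CPM with PaPE-1 in DIO liver. Mki67 in ob/ob liver was at 10.3, 19.4 and 12.3 CPM with vehicle and 6.7, 5.28 and 10.9 CPM with PaPE-1, so that 1 PaPE-1 library passed 1 vehicle library and Mki67 fell outside the rule. Its log2 fold change was -1.03 (SE 0.20), with an unadjusted p of 7.08e-05 and an adjusted p of 0.272 in edgeR.

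Low counts and single libraries bear on these values. The median gene of the list had between 7 and 13 reads in the DIO PaPE-1 libraries and between 22 and 25 in the DIO vehicle libraries, against 30 to 72 in ob/ob liver. Summed over the list, which gives the weight to its few abundant genes, the level was between 139 and 165 CPM with PaPE-1 and between 133 and 183 CPM with vehicle in DIO liver, so the sums overlapped. For ob/ob libraries the sums were between 188 and 290 CPM with PaPE-1 and between 270 and 487 CPM with vehicle. The top of that range was the second vehicle library, without which 42 of the 51 genes were still below 0 in both models. The median gene of the list stood at 6.33 CPM in that library and at 4.06 and 3.93 CPM in the other ob/ob vehicle libraries. With PaPE-1 it stood at 2.64, 2.29 and 3.84 CPM in ob/ob liver, so the size of the ob/ob difference leans on that library. Of 13 cholangiocyte markers, which label bile duct cells, 12 were below 0 in the additive fit, and their sum was 267, 609 and 164 CPM in the ob/ob vehicle libraries against 160 to 202 CPM with PaPE-1. Of 19 lymphocyte markers 17 were below 0, with sums of 9.68 to 32.2 CPM in ob/ob vehicle and 11.1 to 19.4 CPM in ob/ob PaPE-1 libraries, and of 40.7 to 62.0 CPM and 26 to 50.2 CPM in DIO liver. The ob/ob group means of the keratin Krt19 were 2.46 CPM with vehicle and 1.67 CPM with PaPE-1, and those of Epcam 4.86 and 2.78 CPM, and the part of these cells in the result was not tested.

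A different library decided how many genes passed the test over both models. Without the third ob/ob PaPE-1 library, 154 of 14169 genes were higher (1.09%) and 84 lower (0.593%) at an adjusted p under 0.05, whereas the count stayed at 0 when any other library was left out. Of the 51 cell division genes 10 were then lower at that threshold, among them Mki67 at -1.25 (adjusted p = 0.0411 in edgeR) and Top2a at -1.21. Of 79 cytosolic ribosomal proteins 14 were then higher, as were 3 of 13 erythroid markers, and 4 of the 41 common higher and 18 of the 61 common lower genes passed. The common genes had been chosen on these same libraries, so their passing is no separate evidence for them. This library had the largest median distance from the others of its group in ob/ob liver, 0.22 on the log2 scale against 0.17 to 0.21 for the other 5, and its ribosomal protein sum was 13065 CPM against 16286 and 17189 CPM in the other PaPE-1 libraries. Nothing in the labels sets it apart.

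Genes chosen in 1 model were then read in the other, which shares no library with it. In ob/ob liver alone 21 genes of 12713 were lower by more than 2-fold at an unadjusted p under 0.05 (0.165%) and 10 were higher (0.0787%), from unadjusted edgeR p-values. Of the 21 lower genes 19 were below 0 in DIO liver, 90.5% against 51.7% of all genes, with a median of -0.86. They included Cdc20, Ccna2, Kif20a, Kif20b, Ect2, Aspm, Tpx2 and Cip2a. Only 1 of the 10 higher genes was above 0 in DIO liver, 10% against 48.3% of all genes, with a median of -0.50. With 1 ob/ob library left out the share of lower genes below 0 in DIO lay between 73.9% and 85.7%, and without the second vehicle library it was 77.3% of 22 genes, of which 1 was on the cell division list against 6 of the 21. In the other direction, 156 genes were lower by the same rule in DIO liver (1.23%), of which 59.0% were below 0 in ob/ob liver against 50.6% of all genes, with a median of -0.05. Another 53 were higher in DIO liver (0.417%), and 49.1% of these were above 0 in ob/ob liver against 49.4% of all. Passing the rule in the same direction in both models were 5 genes, all lower, among them Aspm, Ccna2, Cdc20 and Itgb8. LOC115488130 also passed it in both models but in opposite directions, lower in DIO and higher in ob/ob liver.

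**Figure D3:**
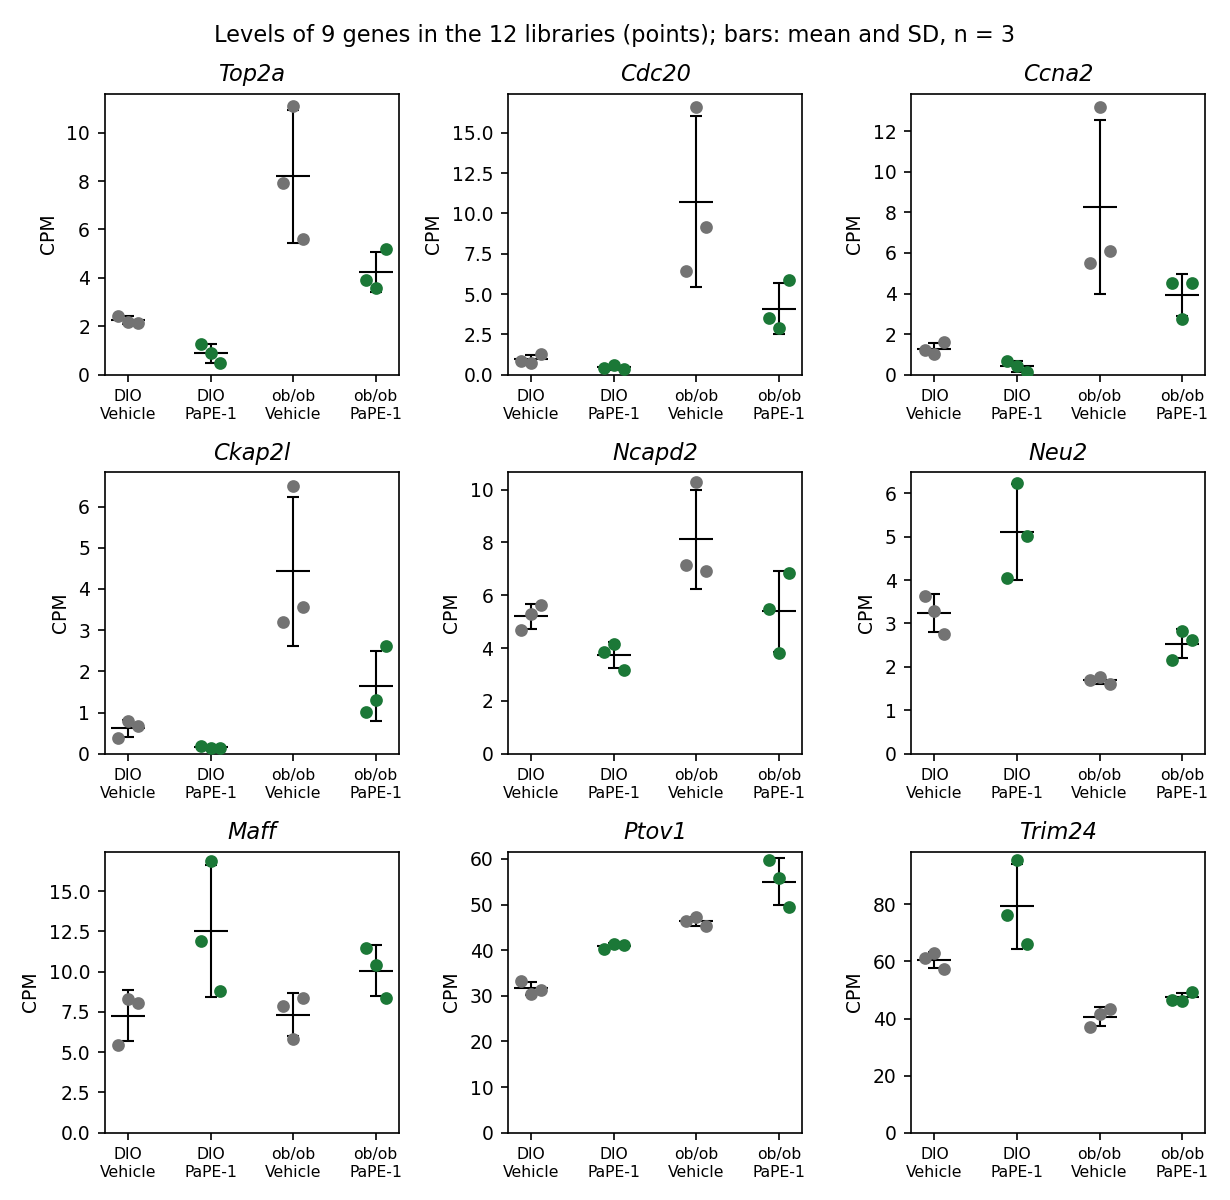
Levels in CPM (vertical axes, from 0) of 9 common genes in the 12 libraries, with the mean and SD of each group (n = 3). Top2a, Cdc20, Ccna2, Ckap2l and Ncapd2 lie lower and Neu2, Maff, Ptov1 and Trim24 higher with PaPE-1 in both models. The second ob/ob vehicle library is the top point of its group in the first 5. Maff and Ptov1 met the rule neither with total counts in place of TMM nor with the trend with gene length removed.

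Matrix genes stood lower in DIO liver, and their ob/ob values depended on 1 vehicle library. Of 43 collagens and other matrix genes, 42 were below 0 in the additive fit and 36 below 0 in both models, with a median of -0.46. The median was -0.64 in DIO and -0.25 in ob/ob liver. Of the 43, 25 lay wholly below vehicle in DIO liver (14.9% of all genes), 4 did so in the ob/ob model (2.97% of all), and both held for 2, Fbn1 and Lamc1 (0.438% of all). The median exon length of the list was 5922 bases, in a class of length where the median of all genes in DIO liver was -0.14. Of 16 hepatic stellate cell markers, which label the main matrix-producing cells of the liver, 11 were below 0 and 9 in both models, with medians of -0.14 and -0.21, and the part of these cells and of gene length in the result was not tested. Fbn1, which encodes the microfibril protein fibrillin 1, was at 4.55, 4.97 and 5.58 CPM with vehicle and 3.07, 3.25 and 2.71 CPM with PaPE-1 in DIO liver. The ob/ob levels of Fbn1 were 4.91, 6.16 and 4.71 CPM and 4.33, 3.82 and 3.14 CPM, and the additive log2 fold change was -0.61 (SE 0.14). Lamc1, the laminin gamma 1 chain of basement membranes, was at 16.4, 18.6 and 18.6 CPM and 11.1, 16.2 and 13 CPM in DIO liver. Lamc1 in ob/ob liver was at 32.3, 37.4 and 32.6 CPM and 31.6, 21.4 and 30.5 CPM. Among the fibrillar collagens, Col1a1 was at -0.89, Col3a1 at -0.88 and Col5a2 at -0.81 (SE 0.36, 0.29 and 0.28). Col4a1 of the basement membrane was at -0.55, from -0.90 in DIO and -0.21 in ob/ob liver. Col5a3 went in opposite directions, -1.31 and 0.47. Without the second ob/ob vehicle library 25 of the 43 matrix genes were below 0 in both models, in place of 36. The median matrix gene stood at 21.3 CPM in that library and at 13.2 and 10.5 CPM in the other ob/ob vehicle libraries against 11 to 12.8 CPM with PaPE-1.

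Other lower genes included a receptor, an integrin and a protease. Ccr2, the chemokine receptor of monocytes, was at 2.73, 3.21 and 5.63 CPM with vehicle and 1.93, 1.8 and 0.746 CPM with PaPE-1 in DIO liver. Ccr2 in ob/ob liver was at 4.25, 6.77 and 4.35 CPM and 3.45, 3.59 and 3.66 CPM, with a log2 fold change of -0.90 (SE 0.25). The 20 Kupffer cell and macrophage markers as a list had a median of 0.03, with 9 below 0 and 11 above. Itgb8 was at 1.05, 0.923 and 0.68 CPM and 0.181, 0.15 and 0.407 CPM in DIO liver and at 1.05, 1.32 and 0.834 CPM and 0.271, 0.612 and 0.523 CPM in ob/ob liver. Prss23, a secreted serine protease, was at 8.09, 9.1 and 9.81 CPM and 5.49, 4.8 and 2.71 CPM in DIO liver. Its ob/ob levels were 9.03, 10.9 and 9.59 CPM and 5.62, 8.11 and 7.38 CPM, and its log2 fold change was -0.76 (SE 0.17). Lower too were the Notch target Heyl (-0.64), the ephrin ligand Efnb2 (-0.45), the BMP-binding protein Bmper (-0.72), the Wnt carrier Wls (-0.32), the large cadherin Fat4 (-0.87) and Mmrn2 of endothelial cells (-0.26). Of 21 liver endothelial markers 16 were below 0, with a median of -0.12. Smchd1, a repressor of chromatin, was at -0.38, the remodeller Smarcad1 at -0.37 and the DNA glycosylase Tdg at -0.32.

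Gsta1 was the one gene of the glutathione and NRF2 list among the common genes. Its levels were 11.6, 19.1 and 21.6 CPM with vehicle and 8.8, 6.88 and 10.9 CPM with PaPE-1 in ob/ob liver. In DIO liver they were 1.87, 1.19 and 2.62 CPM and 0.603, 0.45 and 0 CPM, from 39, 27 and 54 against 10, 9 and 0 reads. The additive log2 fold change was -1.33 (SE 0.33), and the value is uncertain because Gsta1 shares much of its sequence with Gsta2. The other 32 tested genes of that list held no common gene, and the median of the 33 was -0.08.

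The 41 higher genes differed little, with log2 fold changes from 0.12 to 0.73 and a median of 0.27, against -0.52 for the 61 lower genes. Maff, a small MAF transcription factor, was at 5.46, 8.31 and 8.06 CPM with vehicle and 11.9, 16.9 and 8.82 CPM with PaPE-1 in DIO liver. Maff in ob/ob liver was at 7.85, 5.81 and 8.34 CPM and 11.4, 10.4 and 8.37 CPM, where the highest vehicle and the lowest PaPE-1 level almost touched. Its log2 fold change was 0.62 (SE 0.17). Neu2 (chromosome 1, 87501749 to 87525567, strand +), a sialidase, did not come as close between its groups. It was at 3.64, 3.3 and 2.77 CPM and 4.04, 6.24 and 5.02 CPM in DIO liver and at 1.7, 1.76 and 1.61 CPM and 2.17, 2.83 and 2.62 CPM in ob/ob liver, with a log2 fold change of 0.63 (SE 0.16). Fibin, a secreted factor of development, had the largest value, 0.73 (SE 0.27), but in ob/ob liver its vehicle levels were only 0.262, 0.088 and 0.298 CPM, against 0.542, 0.382 and 0.581 CPM with PaPE-1.

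Among more abundant genes, Ptov1 was at 33.2, 30.5 and 31.3 CPM with vehicle and 40.3, 41.5 and 41.1 CPM with PaPE-1 in DIO liver. Ptov1 in ob/ob liver was at 46.4, 47.2 and 45.3 CPM and 59.7, 55.7 and 49.5 CPM, and its log2 fold change was 0.31 (SE 0.08). Trim24, a coregulator of nuclear receptors that is on the list of female-biased liver genes, was at 61.3, 63 and 57.2 CPM and 76.1, 95.6 and 66.1 CPM in DIO liver. Trim24 in ob/ob liver was at 37, 41.6 and 43.4 CPM and 46.6, 46.3 and 49.4 CPM, with a log2 fold change of 0.31 (SE 0.09). Of the 37 genes on that list 26 were above 0 in the additive fit and 17 in both models, with a median of 0.18. Over all 13926 genes these counts were 6854 and 3633. Of 34 male-biased liver genes 19 were above 0 and 5 in both models, with a median of 0.08. The female-biased and male-biased lists had medians of 0.31 and 0.32 in DIO and of 0.21 and -0.13 in ob/ob liver. Close to the limit of the rule, Tmem243 lay inside with a gap between the groups of 0.0004 on the log2 scale in the model where it was smaller. Just outside was Antkmt, with a gap of -0.0001, that is an overlap, and among lower genes the gap was 0.0046 for Cep192 inside and -0.0013 for Cdc42se2 outside.

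Metabolic genes were few in the common set. Acat1, an enzyme of ketone body and isoleucine metabolism, was at 676, 622 and 622 CPM with vehicle and 722, 743 and 820.2 CPM with PaPE-1 in DIO liver. The ob/ob levels of Acat1 were 681, 605 and 567 CPM and 728, 733 and 693 CPM, and the log2 fold change was 0.23 (SE 0.09). Hadh, a dehydrogenase of fatty acid oxidation, was at 573, 587 and 574 CPM and 633, 746 and 708 CPM in DIO liver and at 567, 555 and 570.1 CPM and 601, 578 and 588 CPM in ob/ob liver. Its log2 fold change was 0.17 (SE 0.09). Of 34 genes of fatty acid oxidation and ketogenesis 28 were above 0 in the additive fit and 20 in both models, with medians of 0.20 in DIO and 0.05 in ob/ob liver. The other higher genes included the repair glycosylase Nthl1 (0.46), the cochaperone Dnajc12 (0.42), the GATOR1 subunit Nprl2 (0.29), the elongation factor Tcea3 (0.30) and the mitochondrial RNA factors Mterf4 (0.26) and Ptcd2 (0.22).

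Ribosomal proteins and respiratory subunits stood higher in DIO liver and held 0 common genes. All 79 cytosolic ribosomal proteins lay wholly above vehicle in DIO liver, against 17.5% of all genes, with a median of 0.80. In ob/ob liver 0 did so, against 2.99% of all genes, and the median was 0.02. Of 36 subunits of respiratory complex I, 33 lay above vehicle in DIO liver (median 0.48) and 0 in the ob/ob model (median 0.01), against the same 17.5% and 2.99%. These genes are short, with median exon lengths of 821 bases for ribosomal proteins and 943 bases for complex I, in the class of length where the median of all genes in DIO liver was 0.33. Removing the trend with length left 172 higher and 78 lower genes in DIO liver in place of 843 and 472. With the trend left in, Ndufa2 was at 0.73 in DIO and 0.01 in ob/ob liver, and Cox4i1 of complex IV at 0.62 and 0.02. Fatty acid and triglyceride synthesis had medians of -0.51 in DIO and 0.14 in ob/ob liver, but 4 of its 36 genes lay wholly below vehicle in DIO liver and 2 above, against 14.9% and 17.5% of all genes, and its sums overlapped there. Fasn, the fatty acid synthase, was at -0.99 and 0.23, and its additive value of -0.38 (SE 0.60) was smaller than its error and changed sign without the first DIO vehicle library (0.32). Esr1, the gene of estrogen receptor alpha, was at 0.22 (SE 0.15). Among blood cells, 8 of 8 erythroid markers were above 0 (median 0.90), and their sum was between 386 and 2693 CPM in ob/ob PaPE-1 against 281 to 521 CPM in ob/ob vehicle libraries, and overlapped in DIO liver too. The part of blood cells in these results was not tested.

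**Figure D4:**
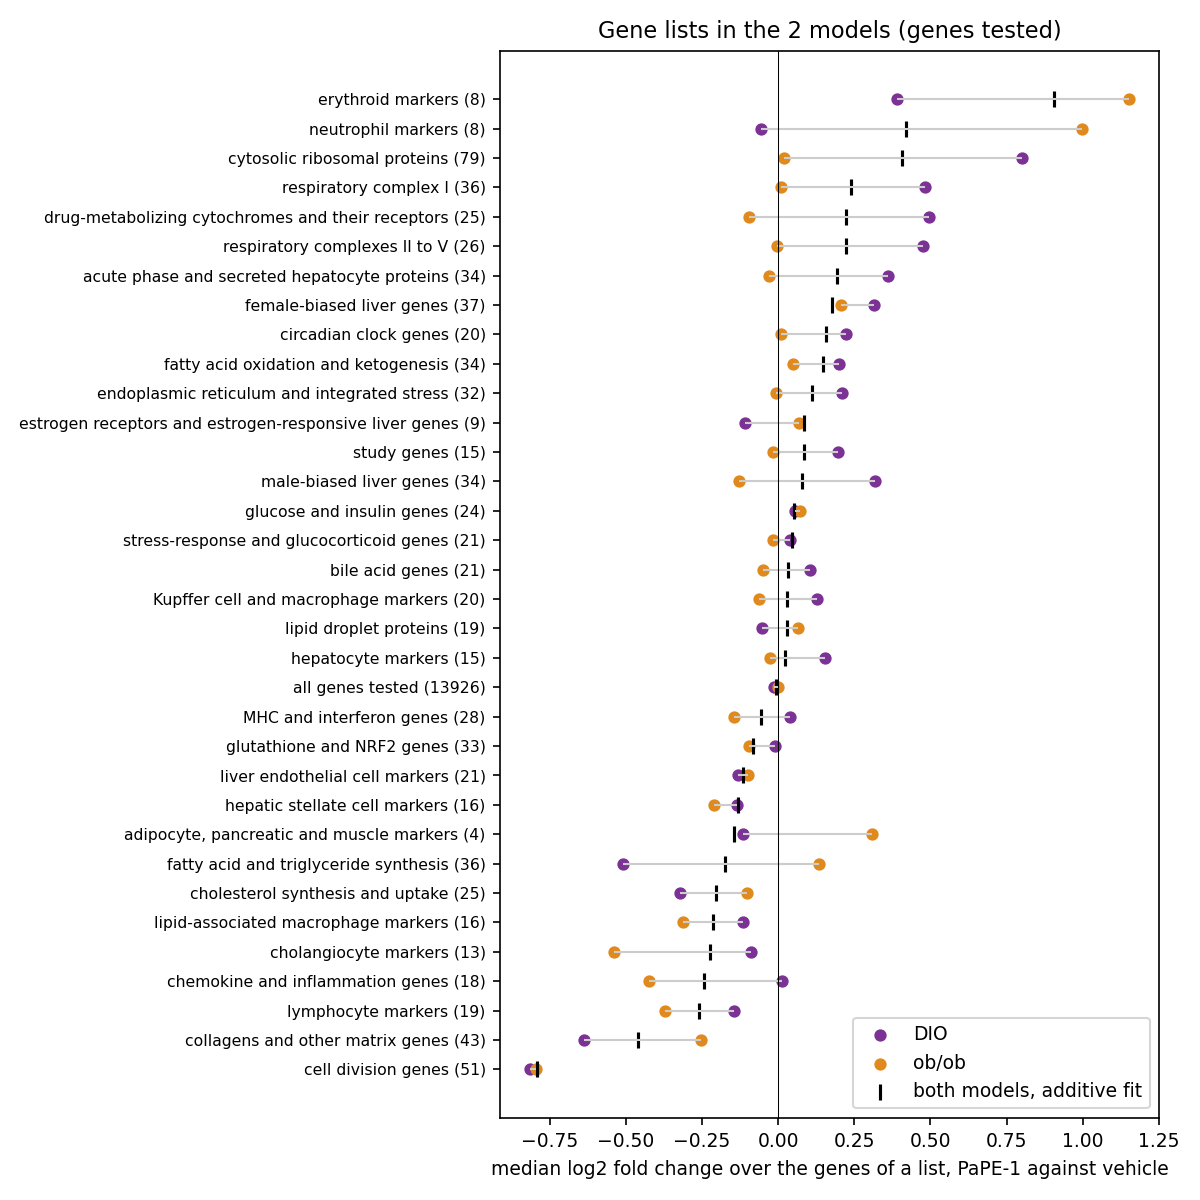
The median log2 fold change of PaPE-1 against vehicle over the tested genes of each list (number in brackets), in DIO liver (purple), in ob/ob liver (orange) and over both (bar). Cell division genes have medians of -0.81 and -0.80, matrix genes -0.64 and -0.25, and ribosomal proteins 0.80 and 0.02.

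The models also differed in the test. In the fit with a mean for each group over the 12 libraries, edgeR's adjusted p under 0.05 called 843 genes higher (6.05%) and 472 lower (3.39%) in DIO liver, and 0 passed in ob/ob liver (0%), where 334 had an unadjusted p under 0.05. The DIO count depended on the libraries that entered the fit: the 6 DIO libraries alone gave 467 higher and 306 lower genes, and adding the 3 DIO E2 libraries gave 0 and 0. The additive fit takes any difference of the PaPE-1 effect between the models as spread. It had unadjusted p-values under 0.05 in edgeR for 1179 genes above 0 (8.47%) and 928 below it (6.66%). By more than 2-fold at that p there were 24 (0.172%) and 94 (0.675%). With DESeq2's Wald test 4 genes were higher and 10 lower at an adjusted p under 0.05. Tested as an interaction, the effect of PaPE-1 differed between the models for 3 genes at an adjusted p under 0.05 (0.0215%), Malat1, Rpl22l1 and Tspan4.

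The common genes differed in length. The median exon length was 2143 bases for the 41 higher and 5725 bases for the 61 lower genes, against 3620 bases for all genes. In DIO liver the median log2 fold change ran from 0.33 in the shortest of 5 equal length classes to -0.25 in the longest, and in ob/ob liver it stayed between -0.01 and 0.02. When each library's trend with length was removed, 42 higher and 54 lower genes met the rule, of which 12 of the 41 and 40 of the 61 were the same genes, 6 of the 7 cell division genes among them. Scaling mattered as well. With total counts in place of TMM the median of all genes moved by -0.21 in DIO and -0.03 in ob/ob liver, and 4 genes were higher and 155 lower, which kept 2 of the 41, 49 of the 61 and all 7 cell division genes. Genes described above that met the rule in neither alternative included Maff, Fibin, Ptov1, Hadh, Tcea3, Nthl1, Dnajc12, Nprl2 and Mterf4. Among the lower genes they included Lamc1 and Aspm.

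**Figure D5:**
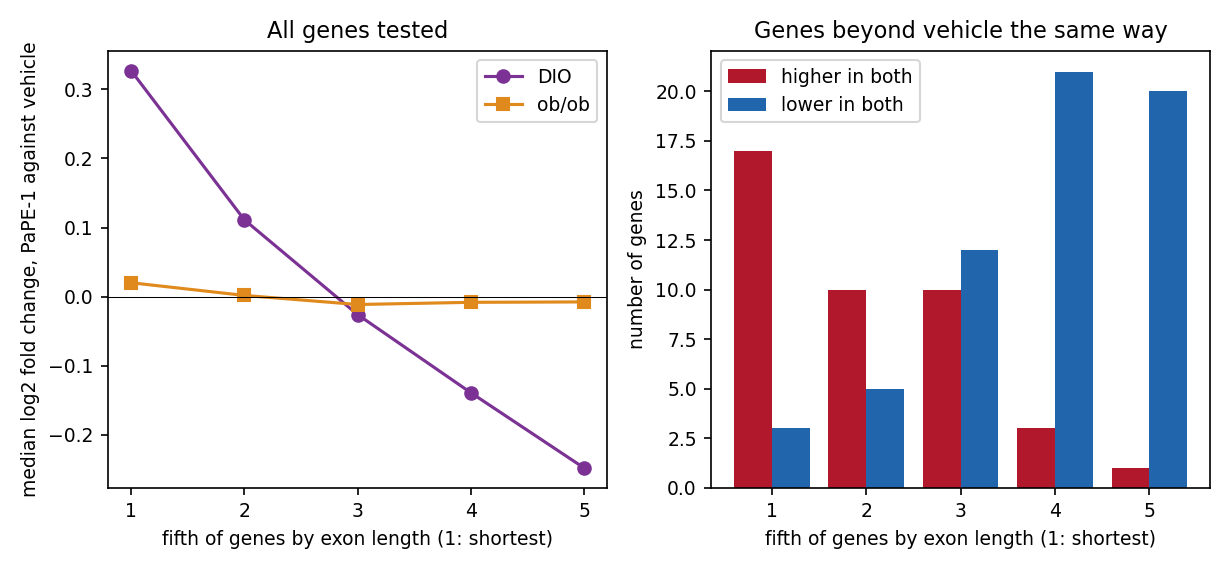
Left, the median log2 fold change of PaPE-1 against vehicle of all tested genes in 5 classes of exon length, from 0.33 to -0.25 in DIO liver and near 0 in ob/ob liver. Right, the number of common genes per class: the 41 higher genes number 17 in the shortest class and 1 in the longest, the 61 lower genes 3 and 20.

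E2 was compared with the same vehicle libraries, so its values are only set beside those of PaPE-1, from a fit over all 18 libraries. The genes were chosen on their PaPE-1 and vehicle values, and this choice bears on the values of both ligands. Which ligand acts more strongly cannot be read from them. For the 61 lower genes the median log2 fold change in DIO was -0.68 with PaPE-1 and -0.26 with E2, and the ob/ob medians were -0.37 and -0.54. For the 41 higher genes the DIO medians were 0.36 and 0.06, against 0.23 and 0.27 for ob/ob. Top2a was at -1.34 with PaPE-1 and -0.42 with E2 in DIO mice, and its ob/ob values were -0.94 and -0.93. For Trim24 the DIO values were 0.39 and 0.25, and the ob/ob values 0.22 and 0.04.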

How the data were processed

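RNA of 18 mouse livers had been sequenced, and 12 libraries (3 of vehicle and 3 of PaPE-1 in each model) enter here, with the E2 libraries used only where named. Per the submitters' processing notes and the file headers, the authors aligned reads with STAR 2.7.6a to GRCm39 and obtained the deposited counts per RefSeq gene with featureCounts 2.0.0 (strand option 2). Their tables of fold changes, p-values and normalized counts were not used. The 2 count tables were joined by gene, 13926 of 40840 genes were kept by filterByExpr, and TMM scaling and quasi-likelihood tests with Benjamini-Hochberg adjustment were run in edgeR 4.0.16 (R 4.3.3), with limma 3.58.1 and DESeq2 1.42.0 as alternatives. CPM are TMM-scaled. The log2 levels used for the rule have a prior count of 2, and fold changes are edgeR's fitted values at its default prior count. With 3 against 3 libraries an exact test cannot go below 0.1. Scripts were tested on simulated data. Genes were named when among the 15 common genes of largest additive change in each direction (mean of at least 1 CPM in 1 group, no bare identifier), when common and on a list, or when study genes or past the interaction test. Troap, Mki67, Acat1, Prss23, Ncapd2, the further genes given only with a fold change and list examples were picked after their values were seen. Members and lists were chosen with earlier results of these data known. Replicate numbers follow accession order, and whether replicates are separate animals rests on the labels, so p-values measure the spread between these libraries. Alternatives changed the filter, scaling, test, libraries and the trend with gene length. Total counts give the depth. A few genes that met the rules are not reported here.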

Additional observations from a re-analysis of the deposited data

Results flagged for a closer look

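The effect of PaPE-1 differed between the models for 3 genes in edgeR's interaction test, in a family of 13926 genes. The nuclear RNA Malat1 had a log2 fold change of -0.85 in DIO and 0.38 in ob/ob liver, a difference of 1.23 (adjusted p = 0.0153 in edgeR). Rpl22l1, a paralog of a ribosomal protein, was at 0.80 and -0.52, a difference of -1.31 (adjusted p = 0.0387 in edgeR), and Tspan4, a tetraspanin, at 1.06 and -0.08, a difference of -1.14. With all 18 libraries in the fit 0 genes passed, and 1988 had an unadjusted p under 0.05 over 12 libraries. A further 85 genes lay beyond vehicle in opposite ways, 38 higher in DIO and lower in ob/ob liver and 47 the reverse, and for them as a group the difference was not tested. Groups of 3 libraries are too small for a test of single outlying libraries.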

How the results depend on the processing

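The additive fit had 0 genes at an adjusted p under 0.05, against 4 higher and 10 lower with DESeq2's Wald test, 5 and 11 with no filter beyond 1 count, and 0 to 154 and 0 to 84 with 1 library left out, the highest without ob/ob PaPE-1 replicate 3. By more than 2-fold, 141 higher and 287 lower genes passed with no filter and 5 and 8 with at least 10 counts in every library, with 21 to 57 and 64 to 142 when 1 library was left out. The genes beyond vehicle in both models numbered 4 higher and 155 lower with total counts, and 55 to 486 and 83 to 398 with 1 library left out, which makes the rule easier to meet. At least 10 counts removed all 7 cell division genes from the test or the rule. In DIO liver 467 and 306 genes passed with its 6 libraries alone, 0 and 0 with E2 added, 172 and 78 with the length trend removed, 255 lower with 18 libraries, and 102 to 936 and 53 to 542 with 1 library left out, lowest without DIO vehicle replicate 2, against 0 to 3 in ob/ob liver. The interaction gave 247 genes with the Wald test, 119 with no filter, 0 with 18 libraries, and 0 to 121 with 1 library left out. The share of ob/ob lower genes below 0 in DIO was 73.9% to 85.7%. Reversed were Ndufb4 (-0.042) and Rpl22l1 (-0.088) with the length trend removed. With 1 library left out Cycs ran from -0.031, without DIO PaPE-1 replicate 1, to 0.13 and Fasn from -0.55 to 0.32, the latter without DIO vehicle replicate 1. Of the values of single genes 924 kept their direction and side of the threshold and 28 newly passed it. The within-model, cell division, matrix and cross-model alternatives were added after seeing the data. The causes were not tested. No paired analysis was possible because replicate numbers were given in accession order.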
